A study of Rattus norvegicus with 20 samples.

Results

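The comparison described here is that of liver RNA from rats given 881 mg/kg triphenyl phosphate with liver RNA from rats given the vehicle. Its members are the 3 arrays of the 881 mg/kg group, set against the 5 arrays of the vehicle group, out of 20 arrays in the series, and they were chosen by the dose in their titles alone. Triphenyl phosphate, an ester of phosphoric acid with phenol, serves as flame retardant and as plasticiser. Male Harlan Sprague-Dawley rats were gavaged with it in corn oil on 4 successive days, and liver was taken on day 5. Vehicle rats received corn oil alone (0 mg/kg), and 881 mg/kg corresponds to 2.7 mmol/kg. The remaining arrays, 3 each at 55, 110, 220 and 440 mg/kg, enter only the estimate of the spread between arrays, except that the 440 mg/kg group is set beside named genes at the end. Nothing in the labels ties an array to an animal of its own, so the p-values rest on how far these samples vary, and that variation may be technical.

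The liver clears foreign compounds in steps. Cytochromes P450, reductases and hydrolases add or expose a reactive group, transferases couple it to glutathione, glucuronic acid or sulfate, and ABC transporters export the conjugate into bile or blood. The genes of these steps are controlled by sensors of foreign compounds, among them the nuclear receptors CAR and PXR, the aryl hydrocarbon receptor and NRF2. Aryl phosphate esters are cleaved by hydrolases and can inhibit serine hydrolases such as carboxylesterases.

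Expression is given on the deposited log2 scale, on which a step of 1 is a doubling, with the highest of a gene's probe sets by mean level standing for the gene. Array values are written in the order of replicates 1 to 5 for vehicle and 1 to 3 for 881 mg/kg, so that the middle dosed value is always replicate 2. Changes are dosed minus vehicle means, over 3 and 5 arrays. The value after ± is the standard error from limma's model, whose spread is estimated from the arrays of all dose groups. It therefore need not match the spread of the vehicle and 881 mg/kg arrays alone. A gene "rose" or "fell" where limma's adjusted p was under 0.05.

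Replicate 2 of the 881 mg/kg group stood apart from the other arrays. Its Gapdh control probe sets read 5.24 higher at the 3′ end than at the 5′ end, against 0.82 to 1.64 on the 19 other arrays, and its actin controls 3.47 against 1.67 to 2.72. Its hexokinase controls did not follow, with 1.47 against 1.54 to 2.05. Its mean correlation with the other 2 arrays of its dose was 0.981, where each of those had 0.988. Those means include the correlation with replicate 2 itself, so they are not the correlation between replicates 1 and 3. Calls and changes against vehicle are therefore given with and without it, and the part of RNA quality in the results was not tested. Alb, the defining hepatocyte gene, read 15.34 to 15.36 on the dosed arrays and 15.30 to 15.35 on the vehicle arrays, and lay near the top of the scale on every array of both groups.

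Of 14217 genes tested, 2767 (19.5%) were called at 881 mg/kg with all arrays, 1810 higher (12.7%) and 957 lower (6.73%). Centring each array on its median turned this split into 1490 higher and 1345 lower, since it moved the median change of all genes from 0.00072 to -0.047. Without replicate 2 the calls were 1643 (11.6%), 1084 higher (7.62%) and 559 lower (3.93%). In both fits and in the same direction, 1412 genes were called (9.93%), of which 958 rose (6.74%) and 454 fell (3.19%). Among them 80 rose (0.563%) and 54 fell (0.38%) by at least 1 on the log2 scale in each fit, and 9 rose (0.0633%) and 8 fell (0.0563%) by at least 2. The 3 dosed arrays lay above all 5 vehicle arrays for 1909 genes (13.4%) and below them for 1181 (8.31%).

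Among the genes called with all arrays, a choice that favours it, replicate 2 carried the larger changes. Over the 1810 genes that rose, the median rise was 0.35 on replicate 1, 0.60 on replicate 2 and 0.35 on replicate 3, and over the 957 that fell the medians were -0.34, -0.50 and -0.40. Over the 958 that rose in both fits the medians were 0.46, 0.61 and 0.46, and over the 454 that fell in both they were -0.49, -0.57 and -0.58, so that replicate 3 was there as low as replicate 2. Over all genes, replicate 2 differed from the mean of replicates 1 and 3 by a median of 0.20, where those 2 differed from each other by 0.12. Replicate 2 read more than 1 above the mean of its partners for 102 genes and more than 1 below it for 143.

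**Figure D1:**
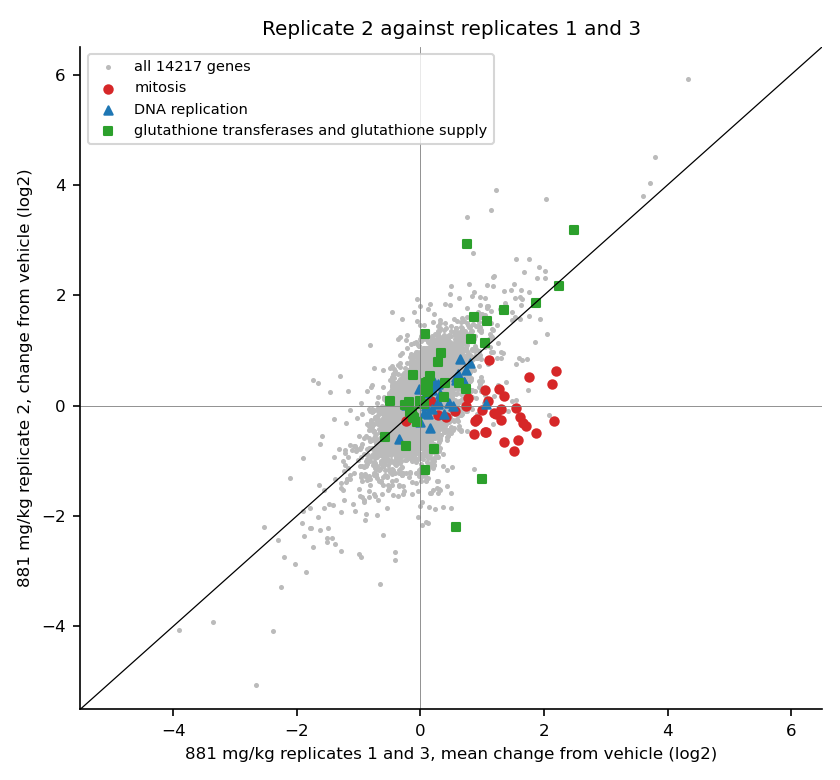
Change from the vehicle mean on 881 mg/kg replicate 2 (vertical axis, log2) against the mean change on replicates 1 and 3 (horizontal axis, log2) for all 14217 genes in grey, with 3 gene lists marked. The line marks equal change. Glutathione genes and DNA replication genes scatter around the line, whereas nearly all mitosis genes lie to its right, near 0 on replicate 2.

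The upstream sequences of 4 of the genes with the largest changes are shown first, because 3 rising genes of glutathione and NADPH metabolism and the gene with the deepest fall share a short motif there. The motif is the core of the antioxidant response element, TGACNNNGC, the sequence bound by NRF2 with its small Maf partners, searched on both strands in the 300 bases from 250 before to 50 after each RefSeq gene start (assembly GRCr8). The 250 bases before the start are printed 5′ to 3′ on the gene's strand, with the matching bases in capitals. Gstp1 lies at chr1:210769706-210769955, minus strand, Gsta3 at chr9:31154739-31154988, plus strand, Me1 at chr8:96540245-96540494, minus strand, and Slc6a6 at chr4:125752252-125752501, plus strand.
Gstp1: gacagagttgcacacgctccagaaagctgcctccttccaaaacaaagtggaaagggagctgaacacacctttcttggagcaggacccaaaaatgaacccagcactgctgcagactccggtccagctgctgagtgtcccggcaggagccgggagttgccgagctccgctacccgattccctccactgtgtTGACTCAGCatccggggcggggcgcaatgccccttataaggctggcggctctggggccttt
Gsta3: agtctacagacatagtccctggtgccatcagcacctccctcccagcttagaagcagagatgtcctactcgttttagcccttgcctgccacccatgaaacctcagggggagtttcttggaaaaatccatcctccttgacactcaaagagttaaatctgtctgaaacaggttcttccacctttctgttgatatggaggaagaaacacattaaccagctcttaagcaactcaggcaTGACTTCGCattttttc
Me1: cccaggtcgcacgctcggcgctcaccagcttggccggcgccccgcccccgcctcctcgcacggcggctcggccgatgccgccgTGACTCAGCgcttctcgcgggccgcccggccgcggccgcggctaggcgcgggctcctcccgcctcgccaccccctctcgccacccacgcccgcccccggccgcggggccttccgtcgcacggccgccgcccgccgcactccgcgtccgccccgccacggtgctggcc
Slc6a6: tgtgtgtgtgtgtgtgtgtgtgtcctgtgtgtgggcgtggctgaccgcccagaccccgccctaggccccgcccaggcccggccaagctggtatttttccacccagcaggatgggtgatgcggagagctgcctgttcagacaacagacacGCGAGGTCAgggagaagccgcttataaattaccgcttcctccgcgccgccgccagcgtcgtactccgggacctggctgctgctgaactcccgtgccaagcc
Counted from the gene start, the matches begin at base -61 in Gstp1, -17 in Gsta3, -167 in Me1 and -101 in Slc6a6. Gstp1 and Me1 carry the same 9 bases, TGACTCAGC, while Slc6a6 carries its match on the opposite strand. Of the 15 genes with the strongest rise, 11 had an entry in the promoter table and 3 held the core. Abcc3, Cyp1a1, Myc and Elovl6 had no entry, so their promoters were not searched. Of the 15 with the strongest fall, 15 had an entry and 4 held it (Slc6a6, Scd, Nim1k and Cdkn1a). Among the promoters of 11700 tested genes the share was 14.4%, and among all 33469 promoters 12.1%. The E-box CACGTG, the clock proteins' binding motif, was found in Cers6 alone of these genes, against 8.9% of the tested genes. The dioxin response element core TTGCGTG was found in none of those searched, where 1.6% of the tested genes held it. Cyp1a1 was not among those searched. Over all 198 named genes with an entry, 33 (16.7%) held the antioxidant response element core, near the 14.4% of tested genes. The 4 printed promoters were picked because they hold it. Those of Nqo1, Gsta4, Gstt3 and Akr1b8, rising genes of related functions, do not. A match describes letters and not a bound site.

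The 4 genes with the strongest rise were Akr1b7, Ces2c, the clock output gene Dbp, which appears with its group, and Abcc3. Akr1b7, an aldo-keto reductase that reduces lipid-derived aldehydes, read 4.39, 4.92, 4.87, 4.70 and 4.64 on the vehicle arrays and 9.86, 10.62 and 8.21 on the dosed arrays. The dosed arrays lay far above the vehicle arrays but also far from each other, with replicate 2 the highest. Akr1b7 rose 29.0-fold (4.86 ± 0.72, adjusted p = 0.000146, and 4.33 without replicate 2, 0.00182). The carboxylesterase gene Ces2c read 8.76, 8.92, 8.75, 8.87 and 8.82 on the vehicle arrays and 12.63, 13.33 and 12.60 on the dosed arrays. The groups were far apart, with replicate 2 the highest array, and Ces2c rose 16.3-fold (4.03 ± 0.21, adjusted p = 1.01e-09, and 3.79 without replicate 2, 1.15e-08). Abcc3, which exports glucuronide conjugates across the basolateral membrane, read 6.38, 6.36, 6.63, 6.83 and 6.72 on the vehicle arrays and 10.22, 10.38 and 10.15 on the dosed arrays. Its 3 dosed arrays were closer together than its vehicle arrays, and the gene rose 12.7-fold (3.67 ± 0.33, adjusted p = 1.31e-06, and 3.60 without replicate 2, 1.67e-05).

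The glutathione transferases of alpha and pi class followed. Gsta3 read 7.78, 7.97, 8.04, 8.13 and 7.91 on the vehicle arrays and 10.27, 11.16 and 10.63 on the dosed arrays, with no overlap, and rose 6.59-fold (2.72 ± 0.43, adjusted p = 0.000246, and 2.49 without replicate 2, 0.00267). Gstp1 read 9.76, 9.32, 9.23, 9.66 and 9.43 on the vehicle arrays and 12.10, 11.64 and 11.34 on the dosed arrays. Its rise was 4.64-fold and hardly moved without replicate 2 (2.22 ± 0.26, adjusted p = 1.69e-05, and 2.24 without replicate 2, 0.000143). Cyp1a1, the P450 that is the classical target of the aryl hydrocarbon receptor, read 5.51, 5.79, 5.75, 5.84 and 5.58 on the vehicle arrays and 7.42, 9.43 and 8.04 on the dosed arrays. Replicate 2 was well above its partners, and without it the rise of 2.60 ± 0.34 (adjusted p = 4.89e-05) became 2.03 (0.00021).

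Several genes with strong rises belong to other functions. The proto-oncogene Myc, a transcription factor of growth, read 6.78, 6.83, 7.33, 7.25 and 7.93 on the vehicle arrays and 8.49, 9.66 and 9.99 on the dosed arrays and rose (2.16 ± 0.34, adjusted p = 0.000281, and 2.02 without replicate 2, 0.00269). Replicate 1 was the closest to the vehicle arrays and replicate 3 the farthest. Cryl1, whose product oxidises gulonate in the glucuronate pathway, read 8.96, 8.79, 8.73, 8.68 and 8.89 on the vehicle arrays and 10.55, 11.33 and 10.92 on the dosed arrays and rose (2.12 ± 0.21, adjusted p = 2.5e-06, and 1.93 without replicate 2, 3.06e-05). The ceramide synthase gene Cers6 read 8.36, 7.39, 7.85, 7.48 and 7.82 on the vehicle arrays and 10.08, 10.08 and 9.52 on the dosed arrays. It rose (2.11 ± 0.18, adjusted p = 1.12e-06, and 2.02 without replicate 2, 1.16e-05), and its vehicle arrays were more spread than its dosed arrays. Elovl6, the elongase of long-chain saturated fatty acids, read 7.45, 7.05, 7.20, 6.98 and 7.07 on the vehicle arrays and 8.53, 8.46 and 9.87 on the dosed arrays. Replicate 3 was the array that stood high for this gene, and Elovl6 rose (1.80 ± 0.33, adjusted p = 0.000917, and 2.05 without replicate 2, 0.00137). The other genes of the 15 with the strongest rise were Dbp, Per3, Gstt3, Akr7a3 and Me1, which appear with their groups.

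The deepest falls joined a transporter, lipid enzymes and regulators. Slc6a6, which takes up taurine, read 10.41, 10.73, 10.09, 10.13 and 10.13 on the vehicle arrays and 6.59, 6.23 and 6.19 on the dosed arrays. All dosed arrays lay in a narrow band far below vehicle, and Slc6a6 fell 15.6-fold (-3.97 ± 0.24, adjusted p = 1.26e-08, and -3.91 without replicate 2, 3e-07), while its other probe set fell less, at -2.64. Scd, the desaturase that makes monounsaturated fatty acids, read 11.29, 11.82, 12.15, 10.24 and 10.92 on the vehicle arrays and 7.88, 6.21 and 9.36 on the dosed arrays. The dosed arrays did not overlap with vehicle but spread widely, with replicate 2 the lowest, and the change was -3.47 ± 0.54 with it (adjusted p = 0.000236) and -2.67 (0.00193) without it. Stac3, a scaffold protein known from muscle excitation, read 11.73, 10.08, 10.80, 10.70 and 11.17 on the vehicle arrays and 7.65, 6.98 and 7.45 on the dosed arrays and fell (-3.54 ± 0.45, adjusted p = 4e-05, and -3.35 without replicate 2, 0.000471). Dhrs7l1, of the short-chain dehydrogenase and reductase family, read 12.60, 12.19, 12.41, 12.75 and 12.66 on the vehicle arrays and 9.83, 8.44 and 10.45 on the dosed arrays. Replicate 2 was again the lowest array, and Dhrs7l1 fell (-2.95 ± 0.45, adjusted p = 0.000194, and -2.38 without replicate 2, 0.00198).

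Serpina7, which encodes thyroxine-binding globulin, read 10.79, 11.69, 11.08, 11.13 and 10.41 on the vehicle arrays and 8.95, 8.59 and 8.50 on the dosed arrays and fell (-2.34 ± 0.31, adjusted p = 5.53e-05, and -2.30 without replicate 2, 0.000498). The dosed arrays lay close together for this secreted carrier. Nim1k, a kinase related to AMPK, read 8.29, 7.78, 7.76, 8.10 and 7.87 on the vehicle arrays and 5.67, 5.09 and 6.19 on the dosed arrays and fell (-2.31 ± 0.28, adjusted p = 2.19e-05, and -2.03 without replicate 2, 0.000285). Nrep fell (-2.04 ± 0.23, -1.88 without replicate 2), as did Mme (-1.92 ± 0.26, -1.77 without replicate 2), which encodes the peptidase neprilysin, and Rgs16 (-1.85 ± 0.38, -2.12 without replicate 2), a regulator of G protein signalling. Inmt, an N-methyltransferase of small amines, read 9.67, 8.11, 7.61, 9.20 and 8.84 on the vehicle arrays and 6.60, 6.78 and 6.99 on the dosed arrays. Its vehicle arrays spread over more than 2 log2 units while its dosed arrays were tight, and its fall was called in both fits (-1.90 ± 0.50, adjusted p = 0.0113, and -1.89 without replicate 2, 0.0417). Rgs16 was the member of these 15 whose groups lay closest together, at 6.84 to 7.72 on the dosed arrays and 7.81 to 9.90 on the vehicle arrays.

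**Figure D2:**
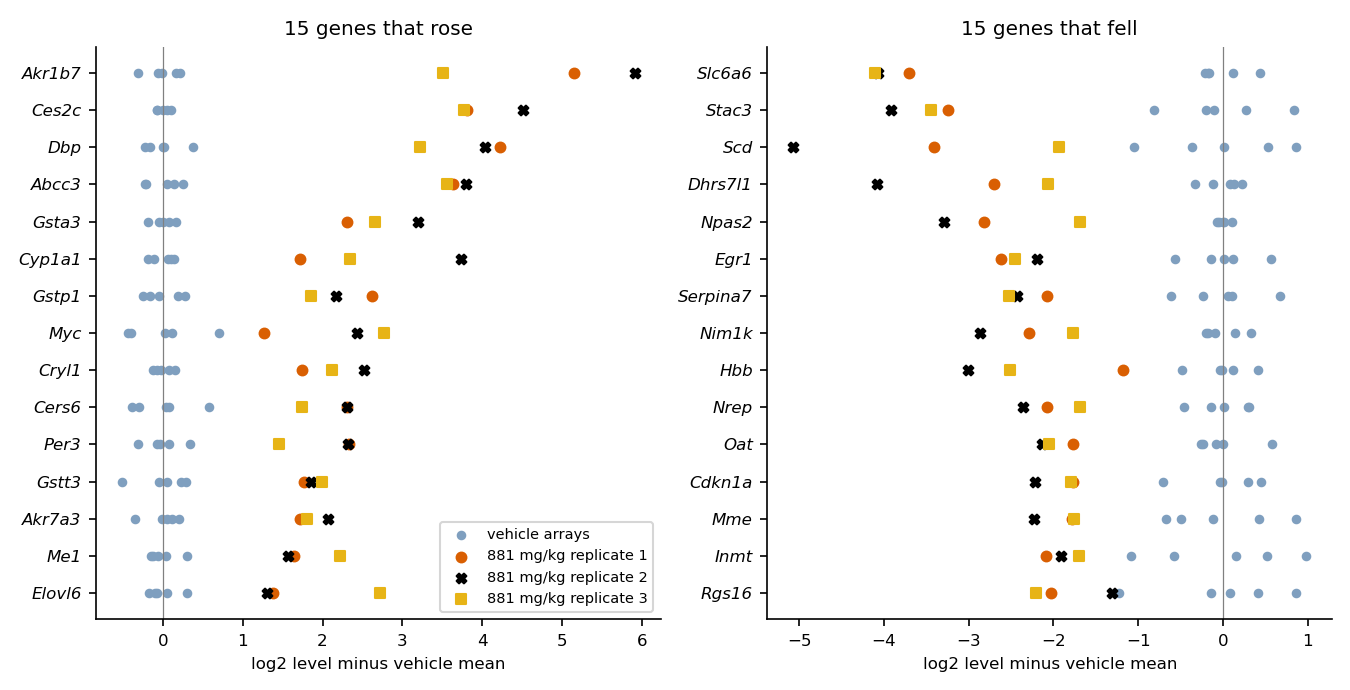
Level on each array minus the vehicle mean (horizontal axis, log2) for 15 rising and 15 falling genes, those with the largest changes by the smaller of their 2 changes, with and without 881 mg/kg replicate 2. Small points are the 5 vehicle arrays and the 3 larger symbols the 881 mg/kg replicates; no dosed array overlaps a vehicle array for these genes, which the choice of genes required, and replicate 2 is outermost for Akr1b7, Cyp1a1, Scd and Dhrs7l1.

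Cytochrome P450 genes changed in both directions. Of 57 measured, 9 rose and 9 fell (31.6% called, against 19.5% of all genes), and 7 rose and 7 fell in both fits. Their median change was -0.00091, or -0.011 without replicate 2, beside 0.00072 and -0.0068 over all genes. Apart from Cyp1a1, the fatty acid hydroxylase gene Cyp4a8 read 5.91, 5.58, 6.21, 6.18 and 6.92 on the vehicle arrays and 7.66, 8.81 and 7.75 on the dosed arrays and rose (1.91 ± 0.31, adjusted p = 0.000345, and 1.54 without replicate 2, 0.00372). Its relative Cyp4a3 went the other way and read 12.58, 12.64, 12.70, 12.91 and 12.52 on the vehicle arrays and 11.75, 11.39 and 11.80 on the dosed arrays. Neither gene's groups overlapped, and Cyp4a3 fell (-1.02 ± 0.14, adjusted p = 8.4e-05, and -0.90 without replicate 2, 0.001). Cyp3a23-3a1, the rat PXR target of the 3A family, read 13.27, 13.11, 13.04, 13.37 and 13.32 on the vehicle arrays and 14.41, 14.52 and 14.28 on the dosed arrays and rose (1.18 ± 0.14, adjusted p = 1.73e-05, and 1.12 without replicate 2, 0.000215). Cyp1a2 shares the aryl hydrocarbon receptor with Cyp1a1 but read 13.40, 13.21, 13.30, 13.44 and 13.44 on the vehicle arrays and 12.87, 12.66 and 12.63 on the dosed arrays. Its dosed arrays were all below vehicle, and it fell (-0.64 ± 0.085, adjusted p = 5.53e-05, and -0.61 without replicate 2, 0.000526). P450 genes of 1 subfamily are similar in sequence, so probe sets can read more than 1 of them.

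Of the genes that supply P450 with heme and electrons, 15 were measured, of which 4 rose and 1 fell (33.3% called, against 19.5% of all genes), and the 4 rose in both fits. Alas1, which sets the rate of heme synthesis, read 10.79, 10.03, 10.71, 10.38 and 9.72 on the vehicle arrays and 11.85, 12.15 and 12.08 on the dosed arrays and rose (1.70 ± 0.23, adjusted p = 6.89e-05, and 1.64 without replicate 2, 0.000691). Hmox1, the oxygenase that degrades heme, read 9.22, 8.91, 9.13, 9.14 and 9.01 on the vehicle arrays and 10.43, 11.29 and 10.76 on the dosed arrays. It rose (1.74 ± 0.17, adjusted p = 2.77e-06, and 1.51 without replicate 2, 2.19e-05), with replicate 2 the highest array. Por, which passes electrons from NADPH to P450, rose on its representative probe set (1.10 ± 0.16, adjusted p = 0.000128, and 0.93 without replicate 2, 0.00148), whereas its other probe set measured -0.14 and was not called. The mean over the 2 was 0.48 (adjusted p = 0.07). The fall of Alad (-0.30 ± 0.074, -0.21 without replicate 2), an enzyme of heme synthesis, was lost without replicate 2 (adjusted p = 0.0661).

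Of the aldo-keto reductases, which reduce aldehydes and ketones, more rose than fell. Of 15 measured, 7 rose and 1 fell (53.3% called, against 19.5% of all genes). In both fits 6 rose and 1 fell, and the median was 0.30 (0.29 without replicate 2). Akr1b8, an NRF2 target of this family, read 5.06, 4.87, 5.18, 4.89 and 4.84 on the vehicle arrays and 6.86, 8.87 and 5.53 on the dosed arrays. The 3 dosed arrays differed by more than 3 log2 units, and the rise shrank from 2.12 ± 0.42 (adjusted p = 0.00199) to 1.22 (0.00321) without replicate 2. Akr7a3, which reduces aflatoxin dialdehyde, read 11.45, 11.05, 11.51, 11.39 and 11.60 on the vehicle arrays and 13.11, 13.46 and 13.20 on the dosed arrays and rose (1.86 ± 0.29, adjusted p = 0.000216, and 1.76 without replicate 2, 0.00201) with tight dosed arrays. Of 18 epoxide hydrolases, aldehyde and alcohol dehydrogenases and carbonyl reductases, 6 rose (33.3% called), 5 of them in both fits. The list's median changed sign, from -0.039 to 0.069 without replicate 2. The retinal dehydrogenase gene Aldh1a1 read 12.38, 12.49, 12.41, 12.44 and 12.30 on the vehicle arrays and 13.88, 13.95 and 13.89 on the dosed arrays. Both groups were narrow, and Aldh1a1 rose (1.51 ± 0.17, adjusted p = 9.47e-06, and 1.48 without replicate 2, 0.000102). Ephx1, the microsomal epoxide hydrolase, read 13.17, 12.79, 13.10, 12.87 and 12.93 on the vehicle arrays and 14.05, 13.25 and 14.04 on the dosed arrays. Here replicate 2 lay just above the vehicle arrays, so that the rise grew from 0.81 ± 0.17 (adjusted p = 0.00297) to 1.08 (0.00022) without it. The alcohol dehydrogenases Adh4 (0.72 ± 0.14, 0.75 without replicate 2) and Adh7 (0.91 ± 0.20, 0.65 without replicate 2) rose in both fits.

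Serine hydrolases, the enzyme class that aryl phosphate esters can inhibit, lost most of their calls with replicate 2. Of 28 measured, 6 rose and 2 fell (28.6% called, against 19.5% of all genes). Without replicate 2 Ces2c alone rose and the same 2 fell. Their median was 0.088, or 0.026 without it. Ces1d, a carboxylesterase of triglyceride turnover, read 13.92, 13.63, 13.70, 13.85 and 13.72 on the vehicle arrays and 12.63, 13.33 and 13.22 on the dosed arrays. It was below all vehicle arrays on each dosed array, lowest on replicate 1, and fell (-0.70 ± 0.13, adjusted p = 0.00082, and -0.84 without replicate 2, 0.00049). The hepatic lipase gene Lipc read 12.99, 12.89, 12.96, 12.95 and 12.88 on the vehicle arrays and 12.50, 12.36 and 12.46 on the dosed arrays and fell (-0.50 ± 0.11, adjusted p = 0.00514, and -0.45 without replicate 2, 0.0312). Lipa, the lysosomal acid lipase, read 11.88 to 12.39 on the dosed arrays and 11.16 to 11.72 on the vehicle arrays. Its rise of 0.54 ± 0.15 (adjusted p = 0.014) became 0.38 (0.116) without replicate 2. Bche, the butyrylcholinesterase gene, read 6.43 to 6.54 on the dosed arrays and 6.45 to 6.60 on the vehicle arrays, and its measured change was -0.01 ± 0.12 (adjusted p = 0.959). The groups overlapped almost entirely for this target of organophosphates.

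Glutathione transferases and the genes that supply glutathione shifted up with little difference between the dosed arrays. Of 39 measured, 15 rose (38.5% called, against 19.5% of all genes), 14 without replicate 2 and 13 in both fits. The median was 0.20 (0.13 without it). The list's mean level was 10.06, 10.10 and 10.08 on the dosed arrays, against 9.60 to 9.73 on the vehicle arrays. Gsta4, which conjugates hydroxynonenal, read 11.40, 11.43, 11.39, 11.53 and 11.39 on the vehicle arrays and 12.84, 13.16 and 12.73 on the dosed arrays. It rose (1.48 ± 0.11, adjusted p = 1.07e-07, and 1.35 without replicate 2, 1.08e-06), with dosed arrays far from a tight vehicle group. The theta-class gene Gstt3 read 11.12, 10.56, 11.30, 11.37 and 11.02 on the vehicle arrays and 12.84, 12.93 and 13.06 on the dosed arrays and rose (1.87 ± 0.27, adjusted p = 0.000117, and 1.88 without replicate 2, 0.000828). Both subunits of glutamate-cysteine ligase, the rate-limiting enzyme of glutathione synthesis, are named here after their values were seen. Gclc (1.08 ± 0.11, 1.05 without replicate 2) and Gclm (1.23 ± 0.15, 1.08 without replicate 2) rose, with no overlap between groups. Gsr, the reductase that regenerates glutathione, read 8.23, 7.37, 7.97, 7.96 and 7.95 on the vehicle arrays and 8.76, 6.56 and 9.04 on the dosed arrays. Replicates 1 and 3 were high and replicate 2 was below every vehicle array, so the change was 0.22 ± 0.39 (adjusted p = 0.734) with it and 1.003 (0.0195) without it. Transferase genes of 1 class are close relatives, and their probe sets may share transcripts.

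Glucuronidation and its sugar supply held the largest share of called genes of any list examined, 84.2% of 19, against 19.5% of all genes. In it 11 rose and 5 fell, 9 and 3 in both fits, with a median of 0.40 (0.28 without replicate 2). Ugt2b1, a transferase of steroids and phenols, read 12.76, 12.48, 12.46, 12.62 and 12.83 on the vehicle arrays and 14.19, 14.21 and 14.31 on the dosed arrays. The dosed arrays were nearly identical, and Ugt2b1 rose (1.61 ± 0.13, adjusted p = 5.68e-07, and 1.62 without replicate 2, 4.55e-06). Ugt2b34l1 read 6.80, 6.76, 6.23, 6.25 and 6.47 on the vehicle arrays and 7.78, 8.68 and 7.57 on the dosed arrays and rose (1.505 ± 0.20, adjusted p = 7.01e-05, and 1.17 without replicate 2, 0.000329), highest on replicate 2. Ugt2b7 read 5.45, 5.42, 5.51, 5.19 and 5.08 on the vehicle arrays and 5.68, 7.32 and 6.65 on the dosed arrays. It rose in both fits, barely so without replicate 2 (1.22 ± 0.28, adjusted p = 0.00475, and 0.84 without replicate 2, 0.0495). Ugdh, which makes the glucuronic acid donor, rose too (0.52 ± 0.12, 0.47 without replicate 2), while Gulo (-0.72 ± 0.11, -0.57 without replicate 2) and Rgn (-0.48 ± 0.083, -0.40 without replicate 2), enzymes of vitamin C synthesis from the same sugar, fell. Those 3 were named after their values were seen.

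Sulfation and sulfur amino acid genes moved the other way. Of 31 measured, 12 fell and 2 rose, 11 and 1 in both fits, with a median of -0.13 (-0.16 without replicate 2), where 6.73% of all genes fell. Besides Slc6a6, the sulfotransferase gene Sult1c3 read 13.53, 13.34, 13.32, 13.34 and 13.27 on the vehicle arrays and 12.48, 11.99 and 12.36 on the dosed arrays. Its groups were well apart, and Sult1c3 fell (-1.08 ± 0.11, adjusted p = 5.31e-06, and -0.94 without replicate 2, 4.38e-05). Gnmt, which regulates the supply of methyl groups from S-adenosylmethionine, read 13.17, 13.13, 13.29, 13.30 and 13.15 on the vehicle arrays and 11.86, 12.41 and 11.93 on the dosed arrays and fell (-1.14 ± 0.12, adjusted p = 5.11e-06, and -1.31 without replicate 2, 1.36e-06). Bhmt, which remethylates homocysteine, read 13.58, 13.17, 13.10, 13.17 and 12.88 on the vehicle arrays and 12.30, 10.83 and 12.85 on the dosed arrays. Replicate 2 decided this call: the change was -1.19 ± 0.30 (adjusted p = 0.00888) with it and -0.61 (0.0626) without it. The hydroxysteroid sulfotransferase Sult2a6 was an exception in direction and read 10.75, 10.54, 10.82, 10.78 and 10.72 on the vehicle arrays and 11.96, 11.97 and 11.80 on the dosed arrays. It rose (1.19 ± 0.23, adjusted p = 0.00154, and 1.16 without replicate 2, 0.00901).

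Enzymes that supply or use NADPH rose in 6 of 16 measured cases (37.5% called, against 19.5% of all genes). Without replicate 2, 5 rose, and the median was 0.25 (0.24). Me1, the cytosolic malic enzyme, read 9.21, 8.78, 8.94, 8.75 and 8.85 on the vehicle arrays and 10.54, 10.47 and 11.12 on the dosed arrays and rose (1.81 ± 0.24, adjusted p = 6.89e-05, and 1.93 without replicate 2, 0.000259). Nqo1, the quinone reductase regulated by NRF2, read 8.20, 8.004, 8.22, 8.21 and 8.56 on the vehicle arrays and 9.996, 10.34 and 9.75 on the dosed arrays. Its dosed arrays were well above vehicle, and it rose (1.79 ± 0.25, adjusted p = 0.000106, and 1.63 without replicate 2, 0.00128). Srxn1, sulfiredoxin, rose on its representative probe set (0.92 ± 0.16, adjusted p = 0.000511, and 0.72 without replicate 2, 0.00507), while 2 other probe sets were not called. Txnrd1, thioredoxin reductase, read 10.65 to 10.77 on the dosed arrays and 10.17 to 10.41 on the vehicle arrays and rose (0.43 ± 0.09, adjusted p = 0.00286, and 0.41 without replicate 2, 0.0156). Its other probe set measured -0.04, and the mean of both was not called (0.19, adjusted p = 0.263).

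Among 37 ABC transporters 8 rose and 5 fell (35.1% called, against 19.5% of all genes), 6 and 4 in both fits. Their median was -0.044 (-0.022 without replicate 2). Besides Abcc3, Abcc4 and Abcb1a were among the 8. Abcc4, a basolateral exporter, read 6.32, 5.95, 6.61, 6.37 and 6.53 on the vehicle arrays and 7.71, 8.45 and 7.93 on the dosed arrays and rose (1.68 ± 0.19, adjusted p = 9.89e-06, and 1.46 without replicate 2, 0.000102). The drug efflux pump gene Abcb1a read 7.25, 7.24, 7.25, 7.49 and 7.40 on the vehicle arrays and 8.57, 9.28 and 9.14 on the dosed arrays. It rose (1.67 ± 0.15, adjusted p = 1.42e-06, and 1.53 without replicate 2, 1.67e-05), and for both genes the groups were far apart. Abcg5, whose product with Abcg8 secretes sterols into bile, read 9.12, 8.74, 8.46, 9.01 and 9.03 on the vehicle arrays and 7.92, 7.02 and 6.71 on the dosed arrays and fell (-1.66 ± 0.29, adjusted p = 0.000725, and -1.56 without replicate 2, 0.00575). The dosed arrays of Abcg5 spread over more than 1 log2 unit, with replicate 3 the lowest. Of 36 uptake and bile salt transporters 2 rose and 3 fell, or 13.9% called against 19.5% of all genes. Slc22a8, an organic anion transporter, read 12.08, 11.74, 11.79, 11.75 and 12.03 on the vehicle arrays and 10.27, 10.08 and 10.67 on the dosed arrays, with no overlap, and fell (-1.54 ± 0.15, adjusted p = 2.43e-06, and -1.41 without replicate 2, 2.92e-05). Its relative Slc22a7 read 11.22 to 11.32 on the dosed arrays and 11.60 to 11.75 on the vehicle arrays and fell (-0.39 ± 0.066, adjusted p = 0.000459, and -0.37 without replicate 2, 0.00319), a small change beside a very small spread.

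The circadian clock of the liver is a loop in which activators and repressors of transcription alternate over the day. Of 24 measured members of the clock loop and its output 8 rose and 2 fell (41.7% called, against 19.5% of all genes). The same counts held in both fits. Dbp, an output factor driven through E-boxes, read 5.80, 6.34, 5.96, 5.97 and 5.73 on the vehicle arrays and 10.19, 9.997 and 9.18 on the dosed arrays. The rise of 3.83 ± 0.27 (adjusted p = 9.6e-08) hardly moved without replicate 2, at 3.72 (1.36e-06). Per3, a repressor of the loop, read 5.10, 4.85, 5.13, 5.24 and 5.51 on the vehicle arrays and 7.50, 7.49 and 6.62 on the dosed arrays and rose (2.04 ± 0.23, adjusted p = 1.03e-05, and 1.89 without replicate 2, 0.000143), although its other probe set measured -0.01 and was not called. The 2 members that fell were Npas2 and Bmal1, activators of the loop. Npas2 read 8.83, 8.65, 8.68, 8.72 and 8.74 on the vehicle arrays and 5.91, 5.43 and 7.04 on the dosed arrays, highest of the dosed arrays on replicate 3, and fell (-2.60 ± 0.24, adjusted p = 1.73e-06, and -2.25 without replicate 2, 1.1e-05). Bmal1 read 8.70, 7.90, 8.58, 8.64 and 8.40 on the vehicle arrays and 6.41, 6.18 and 7.22 on the dosed arrays and fell (-1.84 ± 0.23, adjusted p = 2.9e-05, and -1.63 without replicate 2, 0.000371).

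The nuclear repressors of Bmal1 belong to both the clock and the nuclear receptors. Nr1d2 read 8.14, 9.18, 8.40, 8.38 and 8.32 on the vehicle arrays and 10.25, 10.17 and 9.68 on the dosed arrays and rose (1.55 ± 0.17, adjusted p = 7.66e-06, and 1.48 without replicate 2, 0.000102). Another of its probe sets, at 1.20, was called as well, and a further one, at 0.05, was not. Nr1d1 read 6.42, 7.72, 6.66, 6.67 and 6.39 on the vehicle arrays and 8.76, 7.61 and 8.08 on the dosed arrays. Vehicle replicate 2 was high for both repressors, and for Nr1d1 it overlapped with the lowest dosed array, replicate 2, while the rise was called in both fits (1.38 ± 0.29, adjusted p = 0.00257, and 1.65 without replicate 2, 0.00194). The hour at which liver was taken is not given in the sources used here. Of all 50 nuclear receptors and partners 13 rose and 3 fell (32.0% called, against 19.5% of all genes), 8 and 1 in both fits. The list's median was -0.011 (0.017 without replicate 2). Nr3c2, the mineralocorticoid receptor, rose (0.76 ± 0.12, adjusted p = 0.000324, and 0.73 without replicate 2, 0.00256). Rarb, a retinoic acid receptor, read 9.15, 9.30, 9.22, 9.47 and 9.82 on the vehicle arrays and 9.97, 9.78 and 10.10 on the dosed arrays. Its lowest dosed array lay just inside the vehicle range, and the rise (0.56 ± 0.15, adjusted p = 0.016, and 0.65 without replicate 2, 0.0223) was lost without 881 mg/kg replicate 3 (0.48, adjusted p = 0.0645).

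Among 27 immediate early genes 4 rose and 2 fell, 22.2% called against 19.5% of all genes, with a median of -0.073 (-0.055 without replicate 2). Egr1, a growth-factor response gene, read 9.90, 10.15, 10.06, 10.61 and 9.47 on the vehicle arrays and 7.42, 7.84 and 7.58 on the dosed arrays. It fell (-2.42 ± 0.29, adjusted p = 1.95e-05, and -2.54 without replicate 2, 0.000102), in contrast to Myc, with all dosed arrays far below vehicle. Maff, a small Maf factor, read 4.95, 4.98, 5.06, 5.08 and 5.04 on the vehicle arrays and 5.53, 8.43 and 6.01 on the dosed arrays. Replicate 2 accounted for most of the mean rise, which was 1.64 ± 0.40 (adjusted p = 0.00801) with it and 0.75 (0.0163) without it. The cell cycle inhibitor Cdkn1a read 10.31, 10.28, 10.76, 10.61 and 9.61 on the vehicle arrays and 8.54, 8.09 and 8.52 on the dosed arrays and fell (-1.93 ± 0.22, adjusted p = 1.21e-05, and -1.78 without replicate 2, 0.000157), with another probe set at -0.91. Mdm2, the p53 ligase, read 8.46, 8.24, 8.20, 8.38 and 8.30 on the vehicle arrays and 9.10, 9.35 and 9.02 on the dosed arrays. It rose (0.84 ± 0.10, adjusted p = 1.52e-05, and 0.74 without replicate 2, 0.000154) on its representative probe set, with another at 0.85 called and a further one at -0.09 not called. The retinoblastoma gene Rb1 rose as well (0.58 ± 0.13, adjusted p = 0.00368, and 0.47 without replicate 2, 0.0337).

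Of 23 genes of the growth hormone axis 6 fell (26.1% called, against 19.5% of all genes), 4 of them without replicate 2. The list's median was -0.17 (-0.15 without replicate 2). Growth hormone acts on the liver through STAT5 and drives the secretion of IGF1. Igf1 read 14.14, 14.11, 14.13, 14.05 and 14.00 on the vehicle arrays and 13.73, 13.62 and 13.60 on the dosed arrays. The groups were narrow and apart, and Igf1 fell (-0.43 ± 0.073, adjusted p = 0.000447, and -0.42 without replicate 2, 0.00279). Its other probe sets fell more, at -0.95 and -0.86, and were called as well. Igfbp3, a carrier of IGF1 in blood, read 10.75, 10.53, 10.31, 10.15 and 10.07 on the vehicle arrays and 9.31, 8.61 and 9.60 on the dosed arrays and fell (-1.19 ± 0.25, adjusted p = 0.00295, and -0.91 without replicate 2, 0.031). Stat5a fell by a small amount (-0.26 ± 0.072, adjusted p = 0.0155, and -0.27 without replicate 2, 0.0389). Socs2, a feedback inhibitor induced by STAT5, read 8.28, 7.26, 7.33, 7.41 and 7.16 on the vehicle arrays and 6.34, 5.42 and 6.86 on the dosed arrays. Its fall of -1.28 ± 0.30 (adjusted p = 0.00577) was not called without replicate 2 (-0.89, 0.0601). The epidermal growth factor receptor Egfr read 12.25, 11.96, 12.15, 12.18 and 11.98 on the vehicle arrays and 11.66, 11.78 and 11.05 on the dosed arrays and fell (-0.61 ± 0.20, adjusted p = 0.0359, and -0.75 without replicate 2, 0.0334). Another of its probe sets, at -0.93, was called as well, and a further one, at -0.04, was not. The call of the representative probe set was lost without 881 mg/kg replicate 3 (-0.39, adjusted p = 0.197), and without vehicle replicate 1, 3 or 4 (0.0591 to 0.0704).

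**Figure D3:**
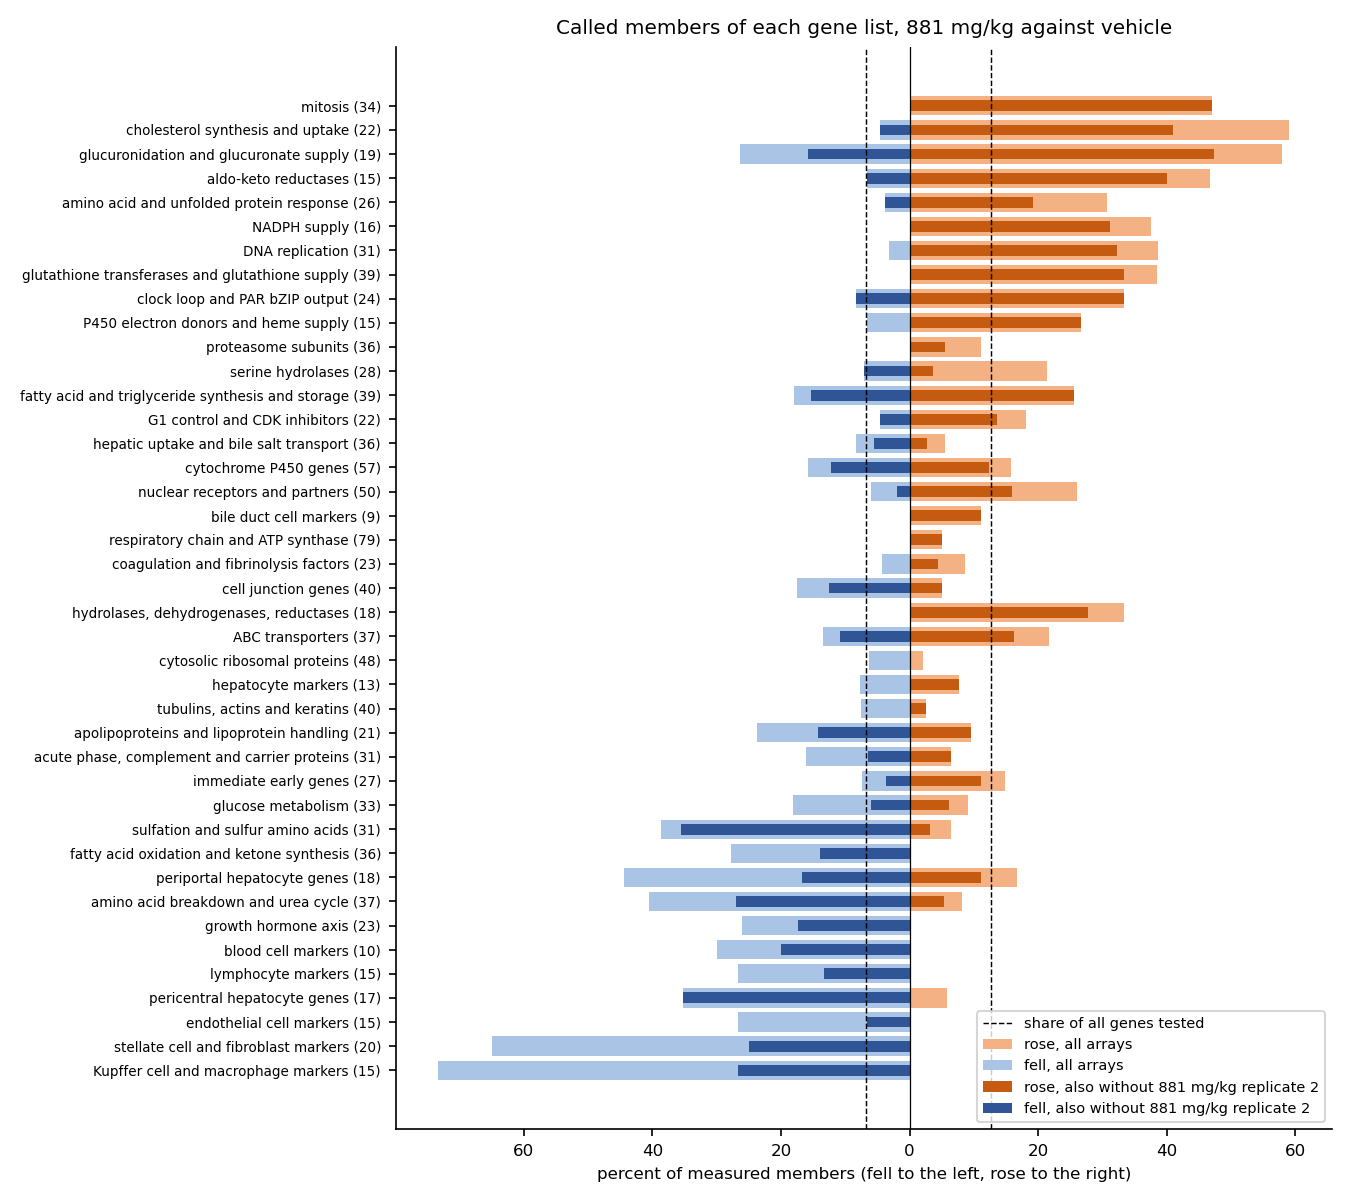
Share of the measured members of each gene list that rose (to the right) and fell (to the left), in percent, with the number measured in parentheses and lists ordered by median change. Pale bars use all arrays, dark bars count members called also without 881 mg/kg replicate 2, and dashed lines mark the shares over all genes, 12.7% higher and 6.73% lower. Cholesterol, glucuronidation and mitosis lists extend farthest to the right, and the pale bars of Kupffer and stellate cell markers, which extend farthest to the left, are mostly not covered by dark ones.

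Cholesterol synthesis and uptake genes rose in 13 of 22 measured cases and fell in 1 (63.6% called, against 19.5% of all genes), 9 and 1 in both fits, with a median of 0.63 (0.56 without replicate 2). The list's mean level was 11.16, 11.22 and 11.20 on the dosed arrays, close together and above all vehicle arrays, which ranged from 10.28 to 10.80. Mvd, of the mevalonate pathway, read 8.30, 8.13, 8.53, 8.44 and 8.69 on the vehicle arrays and 9.42, 9.68 and 9.69 on the dosed arrays and rose (1.18 ± 0.25, adjusted p = 0.00267, and 1.14 without replicate 2, 0.0149). Msmo1, a sterol demethylation enzyme, read 11.78, 11.09, 11.80, 11.48 and 11.82 on the vehicle arrays and 12.86, 12.56 and 12.67 on the dosed arrays and rose (1.10 ± 0.21, adjusted p = 0.00133, and 1.17 without replicate 2, 0.00419). For Lss, which closes the sterol ring, the dosed arrays read 11.18, 11.17 and 11.11 and the vehicle arrays 9.70 to 10.25. Lss rose (1.05 ± 0.19, adjusted p = 0.000998, and 1.05 without replicate 2, 0.00555), and its other probe set, at 0.41, was not called. Acat2, an acetyl-CoA acetyltransferase at the start of the pathway, rose (1.10 ± 0.29, adjusted p = 0.0112, and 1.12 without replicate 2, 0.0373).

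Fatty acid and triglyceride genes split. Of 39 measured, 10 rose and 7 fell (43.6% called, against 19.5% of all genes), 10 and 6 in both fits. The median was 0.072 (0.11 without replicate 2). Fatty acid synthase, Fasn, read 10.25, 10.31, 11.31, 10.42 and 10.83 on the vehicle arrays and 11.41, 11.83 and 12.07 on the dosed arrays. Vehicle replicate 3 was close to the lowest dosed array, and Fasn rose (1.15 ± 0.27, adjusted p = 0.00559, and 1.12 without replicate 2, 0.0269). Plin2, which coats lipid droplets, read 13.06, 13.30, 13.53, 13.33 and 12.98 on the vehicle arrays and 11.33, 10.84 and 12.13 on the dosed arrays. It fell (-1.80 ± 0.19, adjusted p = 6.05e-06, and -1.51 without replicate 2, 2.75e-05), with replicate 3 nearest to vehicle, and less on its other probe set, at -0.72. Cidea, another lipid droplet protein, moved opposite to Plin2 and read 8.27, 7.82, 7.35, 7.61 and 9.51 on the vehicle arrays and 9.78, 9.26 and 10.16 on the dosed arrays. Vehicle replicate 5 overlapped with the dosed range, and the rise (1.62 ± 0.46, adjusted p = 0.0188, and 1.86 without replicate 2, 0.0292) was lost without 881 mg/kg replicate 3 (1.41, adjusted p = 0.0721).

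In fatty acid oxidation and ketone synthesis 10 of 36 measured genes fell (27.8% called, against 19.5% of all genes), 5 of them in both fits. The list's median was -0.13 (-0.098 without replicate 2). Cpt1a, the carnitine transferase that admits fatty acids to mitochondria, read 12.23, 12.54, 12.53, 12.64 and 12.11 on the vehicle arrays and 11.65, 11.67 and 11.04 on the dosed arrays. Replicate 3 was the lowest, and Cpt1a fell (-0.96 ± 0.15, adjusted p = 0.000345, and -1.07 without replicate 2, 0.000626). Angptl4, a secreted inhibitor of lipoprotein lipase, read 11.50, 11.62, 11.48, 11.52 and 10.87 on the vehicle arrays and 9.30, 10.85 and 10.32 on the dosed arrays and fell (-1.24 ± 0.27, adjusted p = 0.00383, and -1.59 without replicate 2, 0.00094). Replicate 2 almost met the lowest vehicle array. Pdk4, which restrains pyruvate oxidation, read 10.27, 10.27, 10.33, 10.63 and 9.85 on the vehicle arrays and 8.22, 9.08 and 9.84 on the dosed arrays. Replicate 3 touched the vehicle range from below, and Pdk4 fell (-1.22 ± 0.27, adjusted p = 0.0044, and -1.24 without replicate 2, 0.0173), with another probe set at -0.77. Of 21 genes of apolipoproteins and lipoprotein handling 5 fell and 2 rose (33.3% called), 3 and 2 in both fits, with a median of -0.054 (-0.10). Apoa1 (0.34 ± 0.07, 0.36 without replicate 2) and Mttp (0.42 ± 0.076, 0.42 without replicate 2), which loads lipid onto apolipoprotein B, rose by small amounts with tight arrays, and Pltp, the phospholipid transfer protein, fell (-0.83 ± 0.14, adjusted p = 0.000596, and -0.70 without replicate 2, 0.00634). Apoa4 fell (-0.63 ± 0.19, adjusted p = 0.0223, and -0.53 without replicate 2, 0.116), a call lost without replicate 2.

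Amino acid breakdown and urea cycle genes fell in 15 of 37 cases and rose in 3 (48.6% called, against 19.5% of all genes). In both fits 10 fell and 2 rose, and the median was -0.17 (-0.15 without replicate 2). Oat, ornithine aminotransferase, read 11.47, 10.63, 10.80, 10.89 and 10.65 on the vehicle arrays and 9.11, 8.76 and 8.83 on the dosed arrays. The dosed group was tight, and Oat fell (-1.99 ± 0.24, adjusted p = 2.15e-05, and -1.91 without replicate 2, 0.000259). Got1, the cytosolic aspartate aminotransferase, read 11.07, 10.95, 10.95, 10.96 and 10.67 on the vehicle arrays and 9.89, 8.96 and 10.20 on the dosed arrays and fell (-1.24 ± 0.22, adjusted p = 0.000887, and -0.87 without replicate 2, 0.00679), lowest on replicate 2. Kynu, kynureninase of tryptophan breakdown, read 12.34, 12.32, 12.33, 12.43 and 12.35 on the vehicle arrays and 11.21, 10.84 and 11.49 on the dosed arrays. Its vehicle arrays were nearly equal, and it fell (-1.17 ± 0.11, adjusted p = 2.12e-06, and -0.999 without replicate 2, 9.57e-06). Agxt, which detoxifies glyoxylate, fell (-0.84 ± 0.12, adjusted p = 0.000136, and -0.74 without replicate 2, 0.00159). Of 33 genes of glucose metabolism 3 rose and 6 fell (27.3% called, against 19.5% of all genes), 2 and 2 in both fits, with a median of -0.092 (-0.064). Pc, pyruvate carboxylase, fell (-0.55 ± 0.085, adjusted p = 0.000238, and -0.54 without replicate 2, 0.00154), and Pck2, the mitochondrial PEP carboxykinase, rose (1.003 ± 0.15, adjusted p = 0.000224, and 0.77 without replicate 2, 0.00163), while another Pck2 probe set at 0.25 was not called.

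Of 26 genes of the amino acid and unfolded protein response 8 rose and 1 fell (34.6% called, against 19.5% of all genes). In both fits 5 rose and 1 fell, and the median was 0.26 (0.20 without replicate 2). Psat1, of serine synthesis, read 8.06, 9.15, 9.996, 9.08 and 8.76 on the vehicle arrays and 10.53, 10.62 and 10.54 on the dosed arrays. The 3 dosed arrays lay close together, whereas the vehicle arrays spread widely, and Psat1 rose (1.56 ± 0.34, adjusted p = 0.00348, and 1.53 without replicate 2, 0.0172). Psph, the last enzyme of that pathway, rose (0.83 ± 0.16, adjusted p = 0.00119, and 0.80 without replicate 2, 0.00774), and so did the stress cytokine gene Gdf15 (0.58 ± 0.15, adjusted p = 0.0103, and 0.57 without replicate 2, 0.0419). Asns, asparagine synthetase, read 7.26, 8.72, 9.37, 8.42 and 8.25 on the vehicle arrays and 9.76, 9.77 and 9.39 on the dosed arrays. Its rise of 1.24 ± 0.40 (adjusted p = 0.035) was lost without replicate 2 (1.17, 0.116) and without vehicle replicate 1, 4 or 5 or 881 mg/kg replicate 1 (0.0561 to 0.0857).

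Mitosis genes showed the sharpest division inside the dosed group. Replicates 1 and 3 lay above all 5 vehicle arrays for 33 of 34 measured genes each, and for the same 33 genes. Replicate 2 lay above them for 3 and below them for 12. Of all 14217 genes, 26.1%, 36.8% and 26.0% lay above all vehicle arrays on replicates 1, 2 and 3. On replicate 2, 4131 of the 14217 lay below them. The list's median change was 1.26 on replicate 1, -0.16 on replicate 2 and 1.14 on replicate 3, and its mean level 7.28, 5.89 and 7.10, against 5.84 to 6.32 on the vehicle arrays. With all arrays 16 rose (47.1% called, against 19.5% of all genes). Without replicate 2 the number was 30, where 7.62% of all genes rose, and the list's median went from 0.76 to 1.21. Replicate 2 is the array with the large 3′ to 5′ difference, and the part of that difference in its low mitosis signal was not tested.

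The genes of this group show the same order. Mki67, the proliferation antigen, read 7.44, 5.77 and 7.27 on the dosed arrays and 4.64 to 5.97 on the vehicle arrays. Its rise was 1.68 ± 0.35 (adjusted p = 0.00269) and 2.20 (0.000262) without replicate 2. Cdk1, the mitotic kinase, read 6.31, 6.51, 6.13, 6.40 and 7.01 on the vehicle arrays and 8.54, 5.98 and 8.15 on the dosed arrays. Replicate 2 was below the vehicle arrays, and the change was not called with it (1.08 ± 0.39, adjusted p = 0.0572) and called without it (1.87, 0.000103). Top2a, which untangles sister DNA, read 6.55, 6.33, 6.63, 6.38 and 6.96 on the vehicle arrays and 8.08, 5.95 and 8.23 on the dosed arrays. The same held: 0.85 ± 0.35 (adjusted p = 0.0932) against 1.59 (5.32e-05). Ccnb2 (1.01 ± 0.40, adjusted p = 0.0837, and 1.61 without replicate 2, 0.0074) and Cdca3 (1.01 ± 0.37, adjusted p = 0.0601, and 1.67 without replicate 2, 0.000879), a mitotic cyclin and a cell division gene, were likewise called only without it, as was Cdkn3 (1.33 ± 0.56, adjusted p = 0.105, and 2.09 without replicate 2, 0.0193), a phosphatase that acts on CDKs.

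Some mitosis genes were called in both fits. The kinetochore gene Spc25 read 6.16, 6.64, 6.18, 6.45 and 6.79 on the vehicle arrays and 8.17, 6.97 and 8.22 on the dosed arrays and had replicate 2 still above vehicle. Spc25 rose (1.34 ± 0.26, adjusted p = 0.00147, and 1.75 without replicate 2, 0.000102). Ccna2, cyclin A2, read 4.81, 5.32, 5.15, 4.96 and 5.73 on the vehicle arrays and 7.68, 4.92 and 7.03 on the dosed arrays. The rise (1.35 ± 0.42, adjusted p = 0.0295, and 2.16 without replicate 2, 0.000143) was lost without 881 mg/kg replicate 1 (0.78, adjusted p = 0.192) or replicate 3 (1.11, 0.113), and without vehicle replicate 1 (0.062) or 4 (0.0575). Ect2, a guanine exchange factor of cytokinesis, read 5.54, 6.03, 6.11, 6.02 and 6.80 on the vehicle arrays and 8.45, 6.48 and 8.002 on the dosed arrays. Its rise (1.55 ± 0.45, adjusted p = 0.0216, and 2.13 without replicate 2, 0.00459) was lost without 881 mg/kg replicate 1 (1.14, adjusted p = 0.114) or replicate 3 (1.37, 0.0748), and without vehicle replicate 1 (0.0502).

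DNA replication genes did not divide in this way. Of 31 measured, 12 rose and 1 fell with all arrays (41.9% called, against 19.5% of all genes). Without replicate 2, 13 rose, 10 of them in both fits. Their median was 0.28, 0.22 and 0.25 on the 3 dosed arrays. Replicates 1, 2 and 3 lay above all vehicle arrays for 18, 15 and 22 of the 31, against 26.1%, 36.8% and 26.0% of all genes. Mcm4, of the replicative helicase, read 7.33, 7.25, 7.29, 7.27 and 7.37 on the vehicle arrays and 8.07, 8.08 and 8.15 on the dosed arrays. The dosed arrays were within 0.1 of each other, and Mcm4 rose (0.80 ± 0.11, adjusted p = 0.00012, and 0.81 without replicate 2, 0.000752). Rfc4, of the clamp loader, rose (0.71 ± 0.12, adjusted p = 0.000616, and 0.64 without replicate 2, 0.00559). Cdt1, which licenses origins, read 5.16, 5.15, 5.05, 5.10 and 5.24 on the vehicle arrays and 5.49, 5.78 and 6.26 on the dosed arrays and rose (0.70 ± 0.12, adjusted p = 0.000393, and 0.74 without replicate 2, 0.00158). Mcm6 departed from its partners and read 6.15, 6.26, 5.91, 5.71 and 6.04 on the vehicle arrays and 7.09, 6.04 and 7.07 on the dosed arrays. Replicate 2 lay among the vehicle arrays, and the rise (0.72 ± 0.19, adjusted p = 0.0126, and 1.06 without replicate 2, 0.000143) was lost without 881 mg/kg replicate 1 (0.54, adjusted p = 0.0748) or replicate 3 (0.55, 0.0719). In G1 control 4 of 22 genes rose and 1 fell, 22.7% called against 19.5% of all genes.

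**Figure D4:**
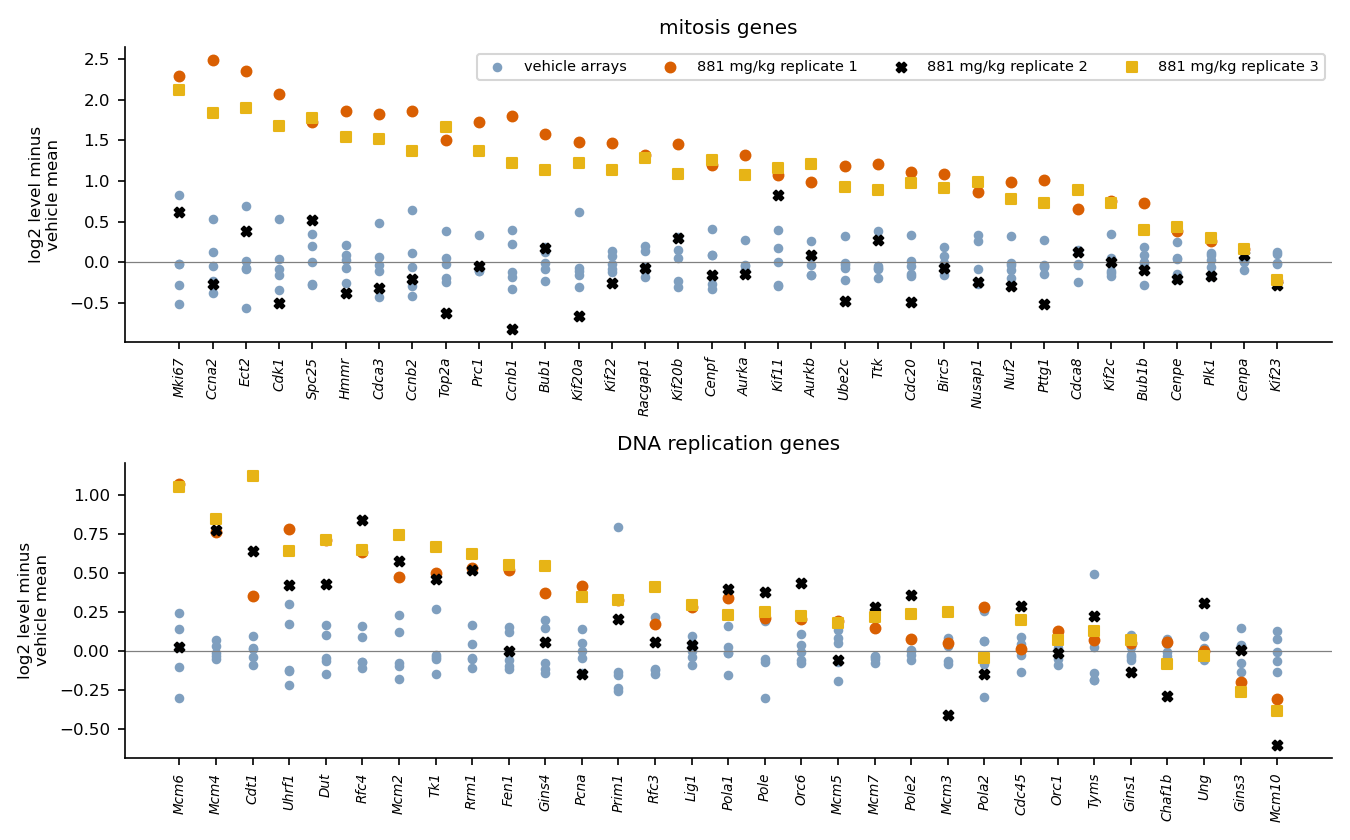
Level on each array minus the vehicle mean (vertical axis, log2) for 34 mitosis genes (top) and 31 DNA replication genes (bottom), ordered by the change without 881 mg/kg replicate 2. Circles and squares, replicates 1 and 3, run above the vehicle arrays across the mitosis genes, whereas the crosses of replicate 2 run through the vehicle arrays; in the lower panel the 3 replicates mix for most genes.

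Junction genes were called about as often as all genes, at 22.5%. Of 40 cell junction genes 7 fell and 2 rose, 5 and 2 in both fits, with a median of -0.025 (-0.052 without replicate 2). Cldn1, a tight junction claudin, read 9.36, 9.50, 9.36, 9.35 and 9.33 on the vehicle arrays and 8.23, 7.59 and 8.35 on the dosed arrays. The groups were far apart, and Cldn1 fell (-1.32 ± 0.12, adjusted p = 1.73e-06, and -1.09 without replicate 2, 1.36e-06). Its other probe sets fell more, at -2.14 and -1.52, and were called as well. Cldn14 fell too (-0.84 ± 0.11, adjusted p = 5.53e-05, and -0.80 without replicate 2, 0.00057). Epcam, an adhesion molecule of bile duct cells and progenitors, read 9.30, 9.29, 8.96, 9.26 and 9.32 on the vehicle arrays and 9.84, 10.52 and 9.91 on the dosed arrays and rose (0.86 ± 0.14, adjusted p = 0.000369, and 0.65 without replicate 2, 0.00275). Of 40 tubulins, actins and keratins 3 fell and 1 rose (10.0% called, against 19.5% of all genes). Tubb2a read 12.60, 12.40, 12.65, 12.69 and 12.39 on the vehicle arrays and 11.47, 10.94 and 12.11 on the dosed arrays, and its fall (-1.04 ± 0.24, adjusted p = 0.0053, and -0.76 without replicate 2, 0.054) was lost without replicate 2. Ribosomal proteins (3 of 48 fell and 1 rose), respiratory chain subunits (4 of 79 rose) and proteasome subunits (4 of 36 rose) had shares of called genes below the 19.5% of all genes, at 8.33%, 5.06% and 11.1%.

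Secreted liver proteins were called below and slightly above the 19.5% of all genes. Of 23 coagulation and fibrinolysis factors 2 rose and 1 fell (13% called), and of 31 acute phase, complement and carrier proteins 2 rose and 5 fell (22.6%), with medians of -0.019 and -0.067. Serpina7 was the member of the latter with the largest change. Orm1, an acute phase glycoprotein, read 13.03, 12.56, 13.18, 13.40 and 13.60 on the vehicle arrays and 13.89, 13.71 and 13.99 on the dosed arrays. Its vehicle arrays spread more than its dosed arrays, and Orm1 rose (0.71 ± 0.16, adjusted p = 0.0043, and 0.79 without replicate 2, 0.00844).

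Among genes of both ends of the liver lobule more fell than rose. Hepatocytes near the central vein make glutamine and hold much P450, and those near the portal vein carry out urea synthesis. Of 17 pericentral genes 6 fell and 1 rose (41.2% called, against 19.5% of all genes). The 6 fell in both fits, and the list's median was -0.26 (-0.34 without replicate 2). Glul, glutamine synthetase of the innermost pericentral layer, read 12.40, 12.34, 12.40, 12.52 and 12.37 on the vehicle arrays and 11.76, 11.59 and 11.64 on the dosed arrays. The groups were tight and apart, and Glul fell (-0.75 ± 0.13, adjusted p = 0.00061, and -0.71 without replicate 2, 0.00471). Its other probe sets fell more, at -1.43 and -0.91, and were called as well. Axin2, a target of Wnt signalling there, read 6.42, 6.24, 6.33, 6.09 and 6.48 on the vehicle arrays and 5.77, 5.43 and 5.88 on the dosed arrays and fell (-0.62 ± 0.12, adjusted p = 0.00199, and -0.48 without replicate 2, 0.0201). Of 18 periportal genes 8 fell and 3 rose (61.1% called), 3 and 2 in both fits, with a median of -0.14 (-0.16). Hal, histidine ammonia-lyase, read 11.09, 11.07, 11.03, 11.09 and 11.01 on the vehicle arrays and 10.44, 10.41 and 10.32 on the dosed arrays. Each vehicle array was within 0.1 of the others, and Hal fell (-0.67 ± 0.11, adjusted p = 0.000547, and -0.68 without replicate 2, 0.00276). Of 13 hepatocyte markers 1 rose and 1 fell.

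Among markers of macrophages, stellate, endothelial and blood cells the called members all fell. In pieces of whole liver, fewer cells of a type and less RNA per cell cannot be told apart. Of 15 markers of Kupffer cells, the resident macrophages, 11 fell with all arrays (73.3% called, against 19.5% of all genes). Without replicate 2, 4 fell, where 3.93% of all genes did, although the medians were alike at -0.68 and -0.63. Their mean level was 9.33, 8.90 and 8.68 on the dosed arrays and 9.44 to 9.81 on the vehicle arrays. By this mean all 3 dosed arrays lay below vehicle, replicate 3 farthest. Clec4f, a lectin made by Kupffer cells, read 11.84, 11.90, 11.85, 12.11 and 11.63 on the vehicle arrays and 11.45, 11.09 and 10.72 on the dosed arrays and fell (-0.78 ± 0.16, adjusted p = 0.00282, and -0.78 without replicate 2, 0.0122). C1qa, a complement component made by macrophages, read 11.16, 11.21, 11.16, 11.34 and 11.05 on the vehicle arrays and 10.79, 9.82 and 10.31 on the dosed arrays and fell (-0.88 ± 0.19, adjusted p = 0.00311, and -0.63 without replicate 2, 0.0325). Cd163, a scavenger receptor, read 8.29, 8.70, 8.53, 8.79 and 8.14 on the vehicle arrays and 7.88, 8.34 and 7.21 on the dosed arrays. It fell (-0.68 ± 0.18, adjusted p = 0.0139, and -0.94 without replicate 2, 0.00145), but was not called when 881 mg/kg replicate 3 was left out (-0.38, adjusted p = 0.0999). Adgre1 fell (-0.67 ± 0.22, adjusted p = 0.0353, and -0.79 without replicate 2, 0.0458) but was not called when 881 mg/kg replicate 3 was left out (-0.46, adjusted p = 0.173) or any 1 of vehicle replicates 1 to 4 (0.0502 to 0.0806).

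Of 20 markers of stellate cells and fibroblasts 13 fell (65.0% called, against 19.5% of all genes). Without replicate 2, 5 fell, where 3.93% of all genes did, and the medians were -0.60 and -0.41. Their mean level was 7.41, 6.97 and 7.20 against 7.59 to 7.90 on the vehicle arrays. Col3a1, a fibrillar collagen, read 11.51, 11.95, 11.76, 11.81 and 11.38 on the vehicle arrays and 11.13, 10.31 and 10.88 on the dosed arrays and fell (-0.91 ± 0.20, adjusted p = 0.00369, and -0.68 without replicate 2, 0.0382). Ecm1, an extracellular matrix protein, read 10.71, 10.55, 10.63, 10.80 and 10.61 on the vehicle arrays and 9.98, 9.42 and 9.91 on the dosed arrays. The groups were apart, and Ecm1 fell (-0.89 ± 0.16, adjusted p = 0.000908, and -0.71 without replicate 2, 0.00971). Pdgfrb, the receptor by which stellate cells respond to platelet-derived growth factor, fell (-0.72 ± 0.087, adjusted p = 2.33e-05, and -0.63 without replicate 2, 0.000262), with 2 other probe sets at -0.34, called, and -0.15, not called. Lox, which cross-links collagen, read 8.42, 7.64, 6.15, 7.01 and 8.45 on the vehicle arrays and 5.59, 4.80 and 5.07 on the dosed arrays. The vehicle arrays spread widely. The change was -2.38 ± 0.68 (adjusted p = 0.019), and at -2.20 it was not called without replicate 2 (adjusted p = 0.0808).

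Endothelial markers fell in 4 of 15 cases (26.7% called, against 19.5% of all genes) and in 1 without replicate 2. Their medians were -0.46 and -0.44. Their mean level of 8.79, 8.37 and 8.23 overlapped with the vehicle range of 8.72 to 9.05 on replicate 1. Egfl7 read 8.38 to 8.40 on the dosed arrays and 8.66 to 8.77 on the vehicle arrays and fell (-0.33 ± 0.09, adjusted p = 0.0135, and -0.34 without replicate 2, 0.0414). Of 15 lymphocyte markers 4 fell (26.7% called), 2 in both fits. Cd74, the invariant chain of antigen-presenting cells, fell (-0.97 ± 0.24, adjusted p = 0.00832, and -1.05 without replicate 2, 0.0202) but was not called when 881 mg/kg replicate 3 was left out (-0.66, adjusted p = 0.0606). Of 10 blood cell markers 3 fell (30.0% called), 2 in both fits. Hbb, beta-globin, read 13.05, 12.91, 12.44, 12.89 and 13.34 on the vehicle arrays and 11.75, 9.91 and 10.41 on the dosed arrays and fell (-2.23 ± 0.36, adjusted p = 0.000347, and -1.84 without replicate 2, 0.00395), and the erythroid enzyme Alas2 read 7.76, 7.61, 7.29, 7.42 and 8.41 on the vehicle arrays and 6.64, 5.30 and 5.90 on the dosed arrays and fell (-1.75 ± 0.29, adjusted p = 0.000391, and -1.43 without replicate 2, 0.00439). Both blood genes were nearest to vehicle on replicate 1. Of 9 bile duct markers Epcam alone rose with all arrays (11.1% called). The part of these cell type shifts in the other gene groups was not tested.

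Calls that turned on replicate 2 were of both kinds. There were 1355 genes (9.53%) called with it and not without it, and 231 (1.62%) called without it and not with it. Among the first, Snx10, a sorting nexin, read 5.09, 6.16, 6.48, 6.45 and 5.36 on the vehicle arrays and 6.84, 9.46 and 7.27 on the dosed arrays. The array was far above its partners, and the rise of 1.95 ± 0.46 (adjusted p = 0.00604) became 1.15 (0.054). Another Snx10 probe set rose by 0.56. Mug1, a protease inhibitor of the murinoglobulin family, read 9.21, 8.30, 8.59, 8.27 and 8.06 on the vehicle arrays and 7.99, 5.25 and 7.69 on the dosed arrays. The change of -1.51 ± 0.45 (adjusted p = 0.0251) became -0.65 (0.228), and it was also lost without vehicle replicate 1 (-1.33, 0.0599). Inhbc, an inhibin subunit made in liver, read 8.64, 8.44, 8.39, 8.41 and 8.78 on the vehicle arrays and 8.19, 5.73 and 8.04 on the dosed arrays, where replicate 2 alone lay more than 2 log2 units below its partners. Its change of -1.21 ± 0.36 (adjusted p = 0.0233) became -0.41 (0.119).

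For 3 further rising genes the change shrank less when the call was lost. Tsku, a secreted proteoglycan, read 10.24, 9.49, 10.81, 9.46 and 8.72 on the vehicle arrays and 11.10, 11.67 and 11.69 on the dosed arrays. Replicates 2 and 3 were nearly equal, and the change was 1.74 ± 0.46 (adjusted p = 0.0128) and 1.65 (0.0562) without replicate 2. Cyp7a1, which starts bile acid synthesis, read 10.54, 9.74, 11.55, 11.82 and 11.38 on the vehicle arrays and 12.04, 12.61 and 11.91 on the dosed arrays. Replicate 2 was the highest array. The change of 1.18 ± 0.38 (adjusted p = 0.0364) was 0.97 (0.169) without replicate 2, and was not called without vehicle replicate 1 or 2 or 881 mg/kg replicate 1 either (0.0576 to 0.0782). Wfdc21, also highest on replicate 2, went from 1.19 ± 0.34 (adjusted p = 0.0187) to 0.94 (0.121).

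Among the genes called only without replicate 2 that were lower, Gbp7, a guanylate-binding protein, read 9.44, 9.66, 8.02, 9.52 and 9.09 on the vehicle arrays and 7.603, 9.62 and 7.23 on the dosed arrays. Replicate 2 lay at the top of the vehicle range while replicates 1 and 3 lay below it, and the change was -0.996 ± 0.43 (adjusted p = 0.114) with it and -1.73 (0.00439) without it. For Nop58 and Rrs1, both of ribosome assembly, replicate 2 lay inside the vehicle range and its partners below it, with changes without replicate 2 of -0.84 (0.0247) and -0.80 (0.0445). Rab30, a small GTPase, measured -0.82 (0.0156) and Nat8, an acetyltransferase, -0.78 (0.0115).

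Few genes separated 881 from 440 mg/kg, the dose nearest to it. In the same model 37 genes differed (0.26%), 19 higher and 18 lower at 881 mg/kg. Of the 958 genes that rose against vehicle in both fits 8 were also higher than in the 440 mg/kg group, and 8 of the 454 that fell were also lower, while 2 went the opposite way. These counts rested on the 440 mg/kg arrays. Without 440 mg/kg replicate 1 or replicate 3 there was 1 gene higher, and lower genes numbered 5 without 440 mg/kg replicate 2. Without 881 mg/kg replicate 1 they were 19 and 11, without replicate 2 they were 75 and 39, and without replicate 3 they were 15 and 2. Of the 227 genes that the naming rule covers, 7 differed.

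Of these 7, 3 fell farther at the higher dose. Slc22a8 read 10.27, 10.08 and 10.67 at 881 mg/kg, 11.11 to 11.53 at 440 mg/kg and 11.74 to 12.08 with vehicle. The 3 groups form 3 separate steps, and the difference was -0.93 ± 0.17, adjusted p = 0.0276, or -0.80, adjusted p = 0.0419 without 881 mg/kg replicate 2. Sult1c3 made the same steps, at 12.48, 11.99 and 12.36, 12.91 to 13.15 and 13.27 to 13.53, with a difference of -0.77 ± 0.13, adjusted p = 0.0186 (-0.63, adjusted p = 0.0272 without that array). Serpina7 read 8.95, 8.59 and 8.50 against 9.95 to 10.65 at 440 mg/kg, a difference of -1.72 ± 0.35, adjusted p = 0.0426. The difference was not called when 881 mg/kg replicate 2 was left out (-1.68, adjusted p = 0.059), nor with the replicate number as a block (adjusted p = 0.0536).

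The other 4 were higher at 881 than at 440 mg/kg. Cdt1 read 5.49, 5.78 and 6.26 at 881 mg/kg, while the 440 mg/kg arrays (5.08 to 5.21) lay within the vehicle range (5.05 to 5.24). The difference was 0.70 ± 0.13, adjusted p = 0.0276. Rarb read 8.73 to 9.21 at 440 mg/kg, reaching only the low end of the vehicle range, against 9.97, 9.78 and 10.10 at 881 mg/kg, a difference of 0.93 ± 0.17, adjusted p = 0.0276. Pdk4 and Tubb2a ran against their own fall from vehicle. Pdk4 read 6.82 to 7.38 at 440 mg/kg, 8.22, 9.08 and 9.84 at 881 mg/kg and 9.85 to 10.63 with vehicle, so the higher dose lay between the other 2 groups (1.90 ± 0.31, adjusted p = 0.0186). Tubb2a was placed alike, at 9.60 to 10.38, 11.47, 10.94 and 12.11 and 12.39 to 12.69 (1.49 ± 0.27, adjusted p = 0.0276).

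Each of these 7 calls was lost when a single array was left out. Without 440 mg/kg replicate 1 the adjusted p of the 7 ran from 0.0957 to 0.164, and without 440 mg/kg replicate 3 from 0.0593 to 0.152. Their differences kept their sign in all of these fits and moved by less than 1.5 times. With all arrays 0 of the 34 mitosis genes were called against 440 mg/kg, at a median difference of 0.69. Once 881 mg/kg replicate 2 was left out, 20 of the 34 were higher, where 75 of all 14217 genes were. Top2a then measured 1.71, adjusted p = 0.000858, and Cdk1 1.83, adjusted p = 0.00358. Ces2c, Abcc3 and Gstp1 were not called between the 2 doses, at 0.66 ± 0.23, adjusted p = 0.278, 0.37 ± 0.37, adjusted p = 0.81 and 0.66 ± 0.29, adjusted p = 0.432, and neither were Slc6a6 (-0.11 ± 0.27, adjusted p = 0.939) and Scd (-0.07 ± 0.60, adjusted p = 0.981). Gclc, named after its values were seen, read 11.16, 11.21 and 11.10 at 881 mg/kg and 10.28 to 10.52 at 440 mg/kg and was higher by 0.75 ± 0.12, adjusted p = 0.0186, a call also lost without 440 mg/kg replicate 1 (0.0957) or 3 (0.0663). A p above the threshold does not show that these other genes were equal at the 2 doses.

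**Figure D5:**
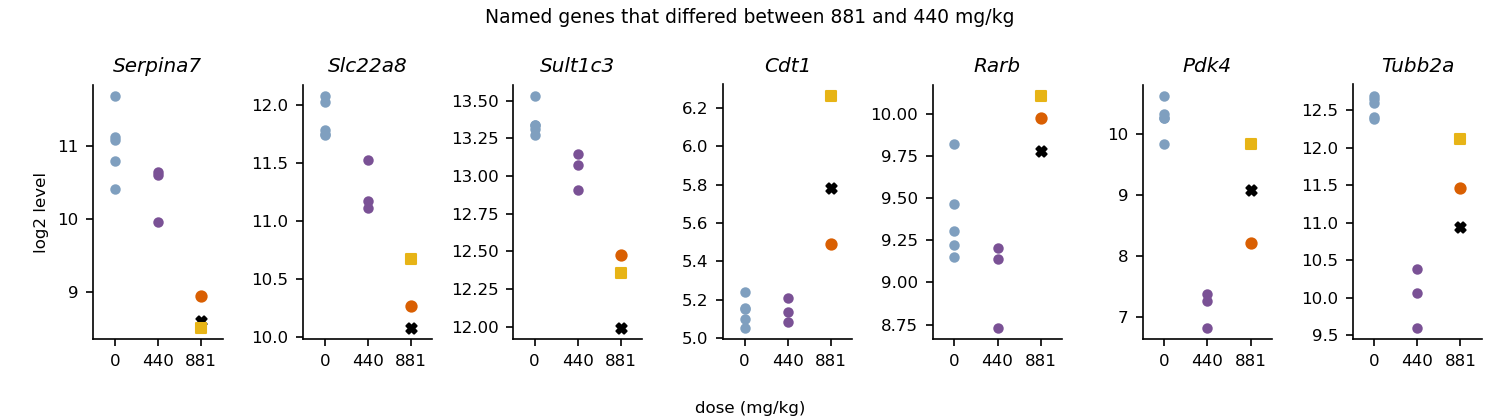
Level (vertical axis, log2, a separate scale per gene) on the 5 vehicle arrays, the 3 arrays at 440 mg/kg and the 3 at 881 mg/kg for the 7 named genes that differed between the 2 doses. Slc22a8 and Sult1c3 step down from group to group, Cdt1 and Rarb are high at 881 mg/kg, and Pdk4 and Tubb2a are lowest at 440 mg/kg.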

How the data were processed

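Total liver RNA was hybridised to 20 Affymetrix arrays, 1 per sample. The deposited values are log2 expression values per probe set, made with RMA per the submitters' processing notes; the sources used here do not give its version or settings. Array number and not read depth limits the precision. Of 31099 probe sets, 57 were controls, 20826 had 1 gene symbol, 436 several and 9780 none in the platform annotation, and 20758 matched RefSeq by gene ID. Where a gene had several probe sets, as 4525 of the 14217 did, the brightest on average across 20 arrays was used.

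The groups were fitted in 1 linear model over 20 arrays (limma 3.58.1, R 4.3.3), with Benjamini-Hochberg adjustment across all genes, calls at an adjusted p below 0.05 and no filter on fold. The fit was repeated without 881 mg/kg replicate 2, and 881 was set against 440 mg/kg in the same model. Labels give 440 mg/kg for that group. Deviations of same-numbered arrays at 881 and 440 mg/kg correlated with 0.217, 0.253 and 0.26, so a replicate block was also fitted for that contrast, and its value is given where it changed a call.

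Genes were named by rule: the 15 that rose and 15 that fell with the largest smaller change of both fits, called in both and not overlapping; up to 4 called members of each list and up to 2 called in only 1 fit; 5 each way called in only 1 fit; and a fixed set of detoxification, lipid, clock and growth genes. Uncharacterised entries, 8 and 3 among the 874 and 405 eligible genes, were not named. The members and lists were chosen with earlier results of these data known. On simulated data for 881 mg/kg against vehicle over 14217 genes, the model recovered 66% of 50 genes changed by 0.5 on the log2 scale, 98% at 1 and 100% at 2 and 3, with 11 false calls. The simulated noise was independent and equal on all arrays for a given gene, and 200 genes were changed. No simulated array stood apart as 881 mg/kg replicate 2 does, so these figures do not measure recovery or false calls on the real arrays. Tables and figures used Python 3.11.15, pandas 2.3.3, NumPy 2.4.6 and matplotlib 3.10.9.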

Additional observations from a re-analysis of the deposited data

Results flagged for a closer look

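The genes named in the text that differed between 881 and 440 mg/kg in limma's test were Serpina7 (-1.72, adjusted p = 0.0426), Sult1c3 (-0.77, 0.0186), Slc22a8 (-0.93, 0.0276), Rarb (0.93, 0.0276), Pdk4 (1.90, 0.0186), Cdt1 (0.70, 0.0276), Tubb2a (1.49, 0.0276) and Gclc (0.75, 0.0186), as log2 differences.

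In the vehicle group 1 of the 5 arrays stood apart from the other 4 for 12 of the 149 genes checked, where chance alone gives about 1 in 20 groups. Vehicle replicate 2 was high for Nr1d1 (7.72, next 6.67), Nr1d2 (9.18, next 8.40) and Cldn1 (9.50, next 9.36) and low for Lss (9.70, next 10.09) and Alb (15.30, next 15.34). Vehicle replicate 1 was high for Sult1c3 (13.53, next 13.34), Nr3c2 (7.20, next 6.74), Socs2 (8.28, next 7.41) and Stat5a (8.26, next 8.14). Vehicle replicate 4 was high for Gsta4 (11.53, next 11.43), replicate 5 low for Angptl4 (10.87, next 11.48) and replicate 3 low for Epcam (8.96, next 9.26).

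Probe sets without a single gene symbol were tested in a further fit of all 31042 probe sets other than controls, with the adjustment across all of them. Of the 10216 without a single symbol, 832 (8.1%) were called at 881 mg/kg against vehicle, 523 higher and 309 lower. Without replicate 2 there were 419 (4.1%), 252 higher and 167 lower.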

How the results depend on the processing

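Against vehicle, 1810 genes were higher and 957 lower, and no named gene called with all arrays reversed its direction under a setting tried. Gsr, called only without 881 mg/kg replicate 2, measured -0.097 without replicate 1 and -0.23 without replicate 3, neither called. Leaving out 1 array at a time gave 1084 to 1879 higher and 559 to 954 lower, the lowest counts in both directions being those without 881 mg/kg replicate 2. Fitting only the 8 arrays of both groups gave 1198 higher and 597 lower, with fewer samples to estimate the spread. Over the 10 other settings counts ran from 1198 to 1898 higher and 597 to 1345 lower. With the Gapdh 3′ minus 5′ difference as a covariate they were 1362 and 780, and with that of actin 1494 and 897. Of 203 named genes called, 78 lost the call under at least 1 alternative. Same-numbered 881 mg/kg and vehicle arrays deviated with correlations of 0.233, 0.051 and -0.103, and replicates 2 and 3 correlated better with another number. These few correlations show no steady pairing by number between the 2 groups, and they cannot exclude one. With the replicate block 1637 genes were higher and 938 lower. Only the vehicle group has replicates 4 and 5, so in that fit these vehicle arrays do not inform the contrast.

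Against 440 mg/kg, leaving out 1 array at a time gave 1 to 75 higher and 0 to 39 lower, and centring each array on its median gave 28 lower in place of 18. With the replicate block the counts were 20 and 18, and of the named genes Serpina7 alone lost its call. The lowest counts were those without 440 mg/kg replicate 1 or 3, and the cause was not tested. With 3 dosed arrays, 1 of them of poorer 3′ to 5′ balance, small changes near the vehicle spread remain poorly resolved.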
